A study of Homo sapiens with 6 samples.

Results

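Interferon-stimulated genes are the genes that a cell switches on when interferon reaches its receptors. Here they were taken as a list of 40 human genes given by symbol. Each of the 40 was found as 1 row among the 60671 annotated genes of the deposited matrix, and 39 of them were high enough to be tested. RNA-seq had been performed on xenografts of the MDA-MB-231 line, which comes from a human breast carcinoma of the triple-negative kind. Unmodified (WT) cells had been injected with Matrigel into mammary fat pads (an orthotopic site) of female NSG mice, 6 to 8 weeks old at purchase, and tissue was then separated into the tumor core (TC, 3 samples) and the tumor margin (TM, 3 samples). Both groups carried the same cells and the same injection, so the zone was the only labelled difference, and the study compared the zones to learn how gene expression differs across a tumor. The legend that describes these data gives n as 3 mice per group. The sources do not say whether a core and a margin of these data came from the same tumor. For other core and margin comparisons, such as inosine levels in tumors of a mouse line, the legends name paired tests. The fit below was made without pairing. The same cell line was used for all these samples, so they are 1 cell line grown in several hosts. Sample values of a zone are given below in the order of replicates 1, 2 and 3. NSG mice lack mature T, B and NK cells but keep macrophages, neutrophils, fibroblasts and vessels.

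As background, type I interferons bind a receptor made of IFNAR1 and IFNAR2, and the kinases JAK1 and TYK2 attached to it phosphorylate STAT factors. STAT2 and IRF9 act in the complex ISGF3, which enters the nucleus and binds a DNA element called the ISRE (interferon-stimulated response element). Interferon gamma uses another receptor and acts through the GAS element (gamma-activated site). The induced proteins block viral entry, degrade or mask viral RNA, attach the ubiquitin-like protein ISG15 to other proteins, and feed back on the pathway itself. Many carcinomas express a set of these genes in the absence of a virus.

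The promoters were examined first, because the ISRE is the element known from such genes and the rule behind the list did not use sequence. RefSeq promoters (GRCh38.p14, 250 bases before to 50 bases after the start of a gene) were listed for 32 of the 40 genes. IFIT2, IFITM2, IRF7, MX2, OAS2, OASL, TRIM22 and USP18 had no entry. The letters of the ISRE core, GAAA-NN-GAAA with N for any base and no gap at the dashes, searched on both strands, were present in 23 of these 32 genes (71.9%), against 4.38% of the 27305 genes in the whole table. At least 2 matches in 1 promoter, which may overlap each other, were present in 13 of the 32 genes, against 0.311% of all genes. By genome position there were 42 distinct matches, of which 35 began within the 150 bases before a start and 1 began after it. The letters TTCNNNGAA of the GAS element, which read alike on both strands, were present in 10 of the 32 genes (31.2%), against 9.38% of all genes, and 6 genes had both. In BST2, EPSTI1, IFI27, IFITM1 and MX1 a GAS match overlapped an ISRE match. PARP9 and DTX3L, which are transcribed away from each other on chromosome 3, shared 1 match at 122564332 to 122564341. A match describes the letters of a window and does not show that a factor binds there.

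The 250 bases before the start are shown for the 4 most abundant members with a match, in capitals where a base belongs to an ISRE match on either strand. STAT2 was added after its values were seen, as the member that differed most between the zones. It has no match in its window.
IFITM3, chr11:320861-321110, minus strand: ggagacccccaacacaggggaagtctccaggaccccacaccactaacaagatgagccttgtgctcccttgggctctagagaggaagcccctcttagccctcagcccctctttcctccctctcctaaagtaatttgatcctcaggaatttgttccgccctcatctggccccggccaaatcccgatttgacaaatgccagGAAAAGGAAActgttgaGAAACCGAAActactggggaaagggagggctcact
IFI27, chr14:94110486-94110735, plus strand: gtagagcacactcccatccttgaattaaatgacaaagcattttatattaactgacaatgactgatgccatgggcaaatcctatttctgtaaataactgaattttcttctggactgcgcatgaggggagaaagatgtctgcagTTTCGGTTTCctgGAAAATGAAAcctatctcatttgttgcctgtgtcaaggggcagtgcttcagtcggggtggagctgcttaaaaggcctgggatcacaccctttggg
IFITM1, chr11:313790-314039, plus strand: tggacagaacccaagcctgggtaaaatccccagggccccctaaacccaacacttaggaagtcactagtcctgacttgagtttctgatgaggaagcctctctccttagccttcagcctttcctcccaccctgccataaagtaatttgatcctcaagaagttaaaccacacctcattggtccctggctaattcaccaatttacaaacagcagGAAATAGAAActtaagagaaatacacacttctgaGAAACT
ISG15, chr1:1013247-1013496, plus strand: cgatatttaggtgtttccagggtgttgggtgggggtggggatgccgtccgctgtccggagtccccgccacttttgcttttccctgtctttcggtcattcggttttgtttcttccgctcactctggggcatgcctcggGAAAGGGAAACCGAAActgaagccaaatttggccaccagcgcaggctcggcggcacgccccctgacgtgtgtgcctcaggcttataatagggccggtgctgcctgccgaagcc
STAT2, chr12:56360108-56360357, minus strand: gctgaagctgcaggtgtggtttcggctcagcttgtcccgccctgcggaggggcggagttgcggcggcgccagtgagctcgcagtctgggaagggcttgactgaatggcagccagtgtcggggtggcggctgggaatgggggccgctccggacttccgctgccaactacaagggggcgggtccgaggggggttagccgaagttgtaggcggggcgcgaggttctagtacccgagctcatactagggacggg
The matches lay close to the start in IFITM3 (first base at -52 and -35, counted from the start) and in IFITM1, where the second match runs across the start and is shown only as far as the start. In ISG15 both matches overlapped, with first bases at -113 and -107. IFI27 is listed with 2 starts, and the sequence belongs to the upstream start, with a match on each strand. HERC6, SAMD9L, STAT2, XAF1 and CMPK2 had neither element in their windows, and IRF1, IRF9, OAS1 and IFI35 had the GAS letters alone.

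**Figure D1:**
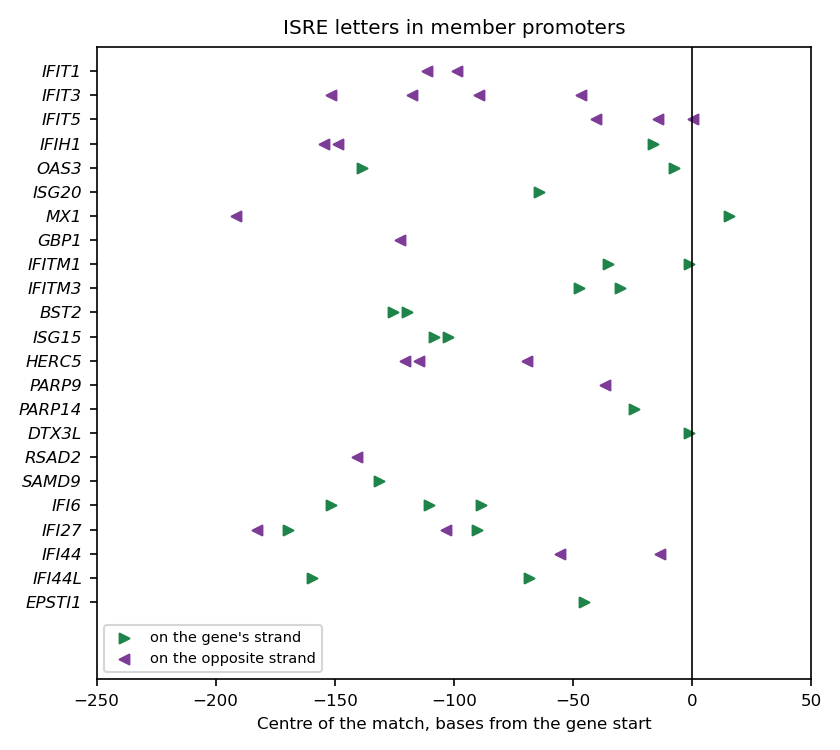
Position of each match to the ISRE letters in the RefSeq promoters of 23 interferon-stimulated genes; the horizontal axis gives the centre of the match in bases from the gene start, and triangles give the strand. Matches of a gene listed with more than 1 start are drawn from each start, and most lie within 150 bases before a start.

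The members also lie close together in the genome. With a gap of at most 100 kb, 22 of the 40 fell into 9 neighbourhoods (GENCODE v29, GRCh38), among them IFIT2, IFIT3, IFIT1 and IFIT5 on chromosome 10 (89283694 to 89421001), IFITM2, IFITM1 and IFITM3 on chromosome 11 (307631 to 327537), and OAS1, OAS3 and OAS2 on chromosome 12 (112906777 to 113011723). The others were pairs, such as MX2 and MX1 on chromosome 21 (41361943 to 41459214) and SAMD9 and SAMD9L on chromosome 7 (93099513 to 93148369). The values below cover all transcripts of a gene, and none is tied to a single exon, intron or UTR.

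The authors deposited TPM, a unit that is corrected for transcript length and lets levels be compared between genes. The number of reads behind a TPM value is not kept, so depth is unknown for all samples and precision was judged from the spread between samples alone. The cell line was recognizable in every sample, with VIM at 3797 to 5283 TPM, KRT18 at 387 to 575 and CD44 at 197 to 267, ESR1 at no more than 0.13 and PGR at no more than 0.22, although ERBB2 was at 22.3 to 40.7. The column of TM replicate 3 stood apart, as it summed to 994381 TPM instead of 1000000. Of 259 loci assembled outside the annotation, 4 were above 0 in it, against 203 to 214 in the other samples. The cause was not tested. Host cell markers also differed between samples. Of 9 fibroblast markers 5 averaged at least 1 TPM, and their sum was 65.8, 124 and 225 TPM in TC and 477, 1005 and 91.0 TPM in TM. Of 9 skeletal muscle markers 8 averaged at least 1 TPM, with sums of 9.18 to 12.5 TPM in TC and 244, 591.5 and 4.70 in TM. Of 14 macrophage markers 4 averaged at least 1 TPM, mostly through CD68, with sums of 88.5 to 101 TPM in TC and 92.8 to 105 in TM, while TYROBP, C1QA, C1QB and C1QC were at 0 in all 6 samples. Neutrophil markers (0 of 7, of which 5 were at 0 in every sample) and endothelial markers (1 of 7, with sums of 3.77 to 7.02 TPM) were near 0. In bulk tissue, fewer cells of a type and less RNA per cell cannot be told apart. The host cells are mouse cells and these are human genes, so a marker at or near 0 does not show that a host cell type was absent.

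The interferon-stimulated genes were expressed in both zones. The 40 genes took 0.443%, 0.407% and 0.743% of all TPM in the TC samples, and 0.492%, 0.748% and 0.415% in the TM samples. Their summed TPM averaged 5312 ± 1845 (TC) and 5511 ± 1754 (TM, n = 3, SD). The mean over all samples was at least 100 TPM for 8 members, between 10 and 100 for 23, and under 10 for 9, and the median member stood at the percentile 68.2 of the tested genes. The 5 most abundant members (IFITM3, IFI27, IFITM1, ISG15 and IFI6) held 70.2% of the members' TPM. CMPK2, a mitochondrial nucleotide kinase next to RSAD2, was listed at 0 in all 6 samples and could not be tested.

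To ask whether the zones differed, TC was compared with TM by limma on log2(TPM + 1). Of the 39 tested members 0 passed an adjusted limma p of 0.05, beside 0.137% of all 13861 tested genes (0.13% lower and 0.00721% higher in TC). At the unadjusted limma threshold of 0.05 there was 1 member (2.56%, beside 16.2% of all genes), STAT2. It was also the 1 member without overlap between the zones, beside 22.2% of all genes (18.9% with lower and 3.28% with higher values in TC). The median difference of the members was -0.11, beside -0.14 for all tested genes, with 28 members lower and 11 higher in TC. This sign followed the scaling and the samples: after median-of-ratios rescaling, which moved the median of all genes from -0.14 to 0.021, the members' median was 0.067 with 14 lower and 25 higher, and it was 0.093 without TC replicate 2, 0.081 without TM replicate 2, -0.32 without TC replicate 3 and -0.31 without TM replicate 3. After quantile normalization the median of all genes was 0.014 and that of the members was -0.020. The 95% intervals of the differences reached 0.27 to either side of the estimate in the narrowest member and 1.35 in the widest, with a median of 0.77, so a log2 difference under about this size could not be told from 0 in the median member. A p-value above the threshold does not show that the zones were alike.

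**Figure D2:**
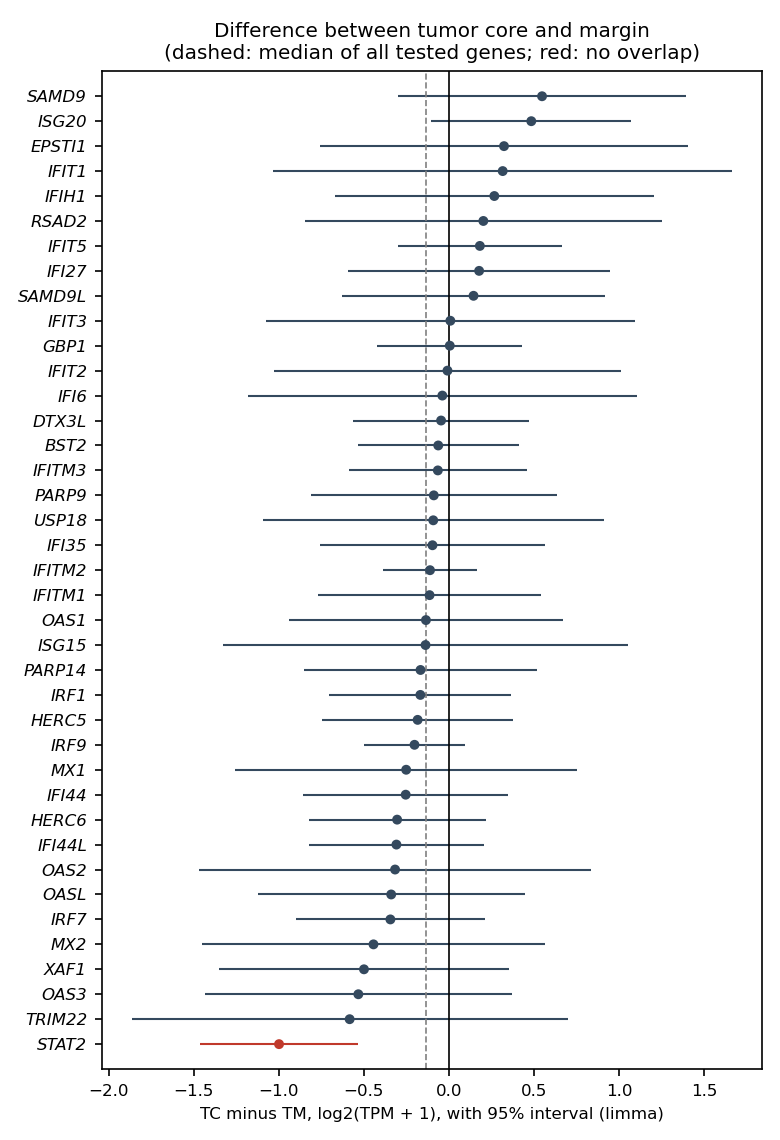
TC minus TM difference of the 39 tested members on the log2(TPM + 1) scale (horizontal axis) with 95% intervals from limma, ordered by size; the dashed line is the median of all tested genes (-0.14). The interval leaves out 0 for STAT2 alone, drawn in red as the member whose TC and TM values do not overlap.

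STAT2 (ENSG00000170581; chromosome 12, 56341597 to 56360155), the subunit that gives ISGF3 its activating domain, was at 20.1, 14.6 and 14.5 TPM in TC and at 26.8, 35.6 and 38.8 TPM in TM. Every TM value lay above every TC value. The mean was 16.4 ± 3.21 TPM for TC and 33.7 ± 6.18 TPM for TM (n = 3, SD), a log2 difference of -0.999 ± 0.20 (SE, limma unadjusted p = 0.00107, adjusted p = 0.0843). The difference passed an unadjusted p of 0.05 under each of 16 alternatives, with log2 differences from -1.15 to -0.80 and limma adjusted p-values from 0.0691 to 0.300. These alternatives refit the same samples in which STAT2 was picked out, so they are not independent evidence. The highest STAT2 value was in TM replicate 3, the TM sample in which most other members were lowest.

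The other transcription factors of the list did not separate the zones. IRF9, the DNA-binding partner of STAT2, was at 115, 109 and 104 TPM in TC and at 124, 142 and 114 TPM in TM. Its groups overlapped at their edges only (log2 difference -0.20 ± 0.13, SE, limma adjusted p = 0.507). After rescaling by median-of-ratios the difference was -0.025, and 39.1% of the 100-base stretches of its transcripts are also found in the overlapping gene AL136295.5, so that reads of one could be counted for the other. IRF7, the factor that amplifies type I interferon production, averaged 36.6 ± 10.2 TPM in TC and 46.7 ± 12.0 in TM (n = 3, SD), a log2 difference of -0.34 ± 0.24 (SE). IRF1, a factor induced mainly through GAS elements, averaged 27.4 ± 5.44 and 31.4 ± 9.11 TPM (n = 3, SD), a log2 difference of -0.17 ± 0.23 (SE).

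The membrane restriction factors were the most abundant members. IFITM3, which hinders the fusion of viruses with endosomes, was at 1279.8, 1411 and 1990.1 TPM in TC and at 1569, 2091 and 1256 TPM in TM. The ranges of the zones covered each other (log2 difference -0.066 ± 0.23, SE, limma adjusted p = 0.924). IFITM1, its relative at the cell surface, was at 482, 416 and 885 TPM in TC and 557, 787 and 514 TPM in TM (log2 difference -0.11 ± 0.29, SE). IFITM2 was at 302, 348 and 329.9 TPM in TC and 384, 329 and 346 TPM in TM, and it was the member with the smallest spread within zones (pooled SD 0.11 on the log2 scale, against 0.47 for IFITM1 beside it). The family is closely related and the annotated spans of IFITM1 and IFITM2 overlap: 27.5% of the 100-base stretches of IFITM1 transcripts and 18.2% of those of IFITM2 are found in another gene, so reads may have been exchanged among these copies. BST2 (tetherin), which holds budding virus particles at the membrane, was at 312, 279.6 and 419.6 TPM in TC and 371, 418 and 269 TPM in TM (log2 difference -0.063 ± 0.21, SE).

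ISG15, the ubiquitin-like protein secreted or attached to other proteins, was at 335, 279 and 916 TPM in TC and at 381, 962 and 311 TPM in TM. In each zone 1 sample was about 3 times the lowest (3.29 times in TC and 3.09 times in TM), and the zone means, 509.9 ± 353 and 551 ± 357 TPM (n = 3, SD), differed by far less (log2 difference -0.14 ± 0.52, SE, 95% interval -1.33 to 1.05, limma adjusted p = 0.932). USP18, which removes ISG15 and dampens signaling at IFNAR2, averaged 21.9 ± 10.3 and 24.3 ± 14.8 TPM (n = 3, SD), a log2 difference of -0.093 ± 0.44 (SE), with 15.4% of its stretches shared with USP41. HERC5, the ligase for ISG15, averaged 6.46 ± 1.13 and 7.55 ± 1.88 TPM (n = 3, SD), and its relative HERC6 averaged 16.5 ± 4.63 and 20.06 ± 1.15 TPM (n = 3, SD). In none of the 4 genes did limma give an unadjusted p below 0.214.

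IFI6, a mitochondrial protein that protects cells from death, was at 251, 211 and 606 TPM in TC and 231, 674 and 224 TPM in TM (log2 difference -0.039 ± 0.50, SE). IFI27, a mitochondrial relative of IFI6, was at 592, 494 and 1170.5 TPM in TC and 553, 878 and 488 TPM in TM (log2 difference 0.18 ± 0.33, SE). IFI35, a binding partner of NMI, was at 52.3, 48.4 and 85.0 TPM in TC and 63.9, 91.1 and 45.4 TPM in TM (log2 difference -0.097 ± 0.29, SE). In all 3 genes TC replicate 3 and TM replicate 2 were the high samples, and the zones overlapped. IFI44, IFI44L, XAF1, EPSTI1 and TRIM22 averaged 53.0, 15.5, 8.66, 9.94 and 2.08 TPM over all samples, with log2 differences of -0.25, -0.31, -0.50, 0.32 and -0.58 and a smallest unadjusted limma p of 0.203. TRIM22 was at 6.89 TPM in TM replicate 2 and between 0.39 and 1.98 TPM in the other samples.

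Among the proteins that bind or degrade RNA, IFIT3, a part of the IFIT complex that holds back foreign RNA caps, was at 60.5, 29.9 and 99.7 TPM in TC and at 47.7, 101.7 and 36.6 TPM in TM. The zones overlapped (log2 difference 0.0076 ± 0.47, SE, limma adjusted p = 0.995). The 4 IFIT genes summed to 120.1, 64.1 and 183 TPM in TC and 97.3, 183 and 66.8 TPM in TM. IFIT1 varied most of all members within the zones (pooled SD 1.00 on the log2 scale, from 10.6 to 42.3 TPM in TC and from 8.75 to 39.9 in TM), whereas IFIT5, in the same neighbourhood, varied little (0.25). The enzymes OAS1, OAS2 and OAS3, which make the activator of RNase L, averaged 58.0, 41.6 and 57.4 TPM over all samples, with log2 differences of -0.14, -0.32 and -0.53. OASL, a relative without the enzyme activity, averaged 25.0 TPM with a log2 difference of -0.34. Without TM replicate 3 the limma adjusted p-value was 0.251 for OAS3 (log2 difference -0.85) and 0.225 for XAF1 (-0.83), both under the unadjusted threshold of 0.05, against 0.578 and 0.582 with all samples. Without TC replicate 3 the same held for IRF7 (log2 difference -0.56, limma adjusted p = 0.411). Over all genes 19.2% were under the unadjusted threshold without TM replicate 3 and 11.8% without TC replicate 3. ISG20, an RNA exonuclease, averaged 69.8 ± 7.71 TPM in TC and 51.99 ± 20.3 in TM (n = 3, SD), and its log2 difference was 0.48 ± 0.26 (SE, with limma adjusted p = 0.415). It was the member higher in TC at an unadjusted p under 0.05 after quantile normalization (log2 difference 0.60 with limma adjusted p = 0.346), in the median-of-ratios rescaling (0.66, adjusted p = 0.349) and without TM replicate 2 (0.77, adjusted p = 0.173). IFIH1 (MDA5), a sensor of double-stranded RNA, averaged 5.59 ± 1.85 and 4.82 ± 2.70 TPM (n = 3, SD).

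The remaining members were of middle or low abundance. The dynamin-like GTPases MX1 and MX2 averaged 32.7 and 13.0 TPM over all samples (log2 differences -0.25 and -0.44), and GBP1, which coats vacuoles of pathogens, averaged 21.2 ± 3.39 and 21.1 ± 3.04 TPM (n = 3, SD), a log2 difference of 0.0043 ± 0.19 (SE). PARP9 and its partner DTX3L, an ADP-ribosyltransferase and a ubiquitin ligase that act as a complex, had log2 differences of -0.090 and -0.047, and PARP14 had -0.17. SAMD9 and SAMD9L, restriction factors of poxviruses, averaged 4.17 and 4.25 TPM over all samples (log2 differences 0.55 and 0.14). RSAD2 (viperin), which makes a chain-terminating nucleotide, averaged 4.92 ± 2.77 and 4.24 ± 2.77 TPM (n = 3, SD).

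The members differed more between samples of the same zone than between the zones. The pooled SD within zones exceeded the difference between zones in 32 of 39 members (82.1%; 57% of all genes). The median pooled SD was 0.50 on the log2(TPM + 1) scale for the members and 0.27 for all tested genes, and 34 of 39 members lay above the median of all genes. The highest sample of a zone was a median of 2.08 times the lowest in TC and 1.95 times in TM. The order of samples was shared by most members. TC replicate 3 was the highest TC sample in 26 of 39 members (66.7%; 23.9% of all genes), and TC replicate 2 the lowest in 32 (82.1%; 26.3% of all genes). TM replicate 2 was the highest TM sample in 34 of 39 (87.2%; 27.5% of all genes), and TM replicate 3 the lowest in 32 (82.1%; 47.1% of all genes). All 4 of these orders were met by 21 members (53.8%; 4.39% of all genes). After median-of-ratios rescaling the 4 counts were 31, 32, 35 and 25 of 39. The order was read from the same values that it describes, so no test was made of it, and the members are not independent of each other.

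**Figure D3:**
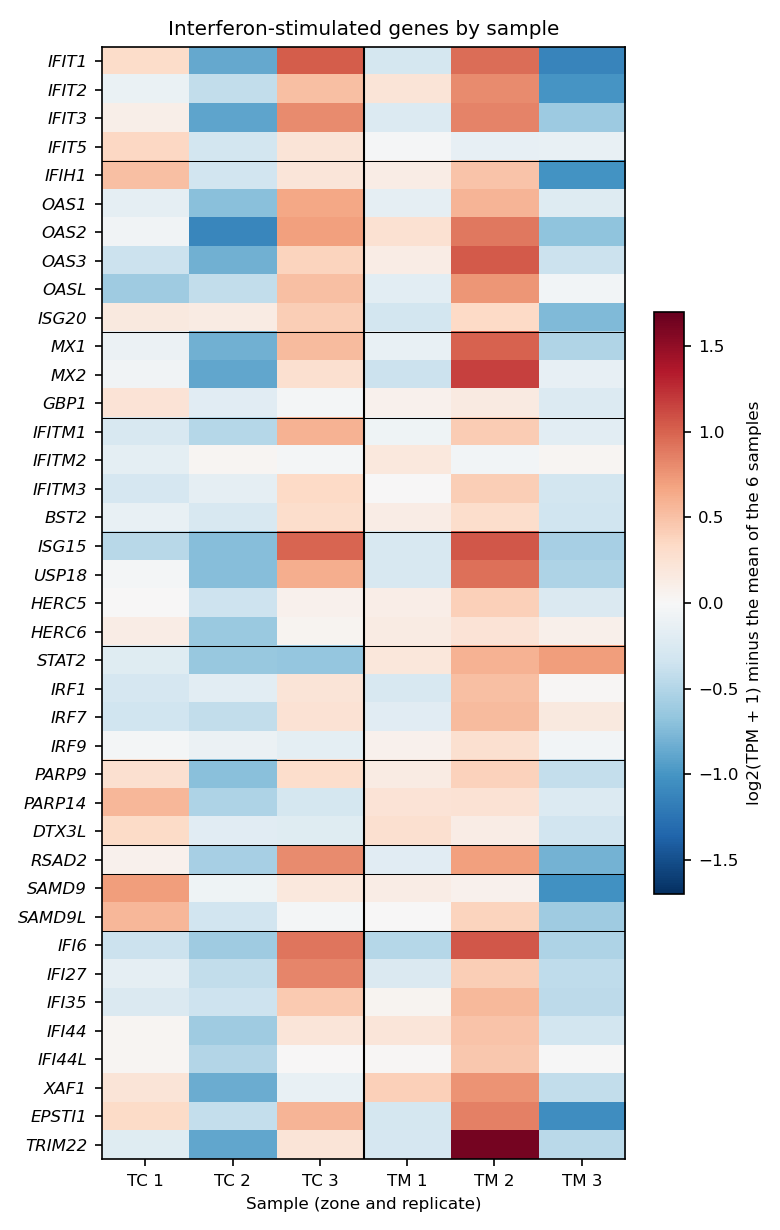
Level of the 39 tested members in each of the 6 samples, as log2(TPM + 1) minus the member's mean over the 6 samples (color), with lines between role groups. TC replicate 3 and TM replicate 2 are red in most rows and TC replicate 2 and TM replicate 3 blue, whereas STAT2 is red in TM and blue in TC.

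Relative to the mean of its zone, the median member stood at 0.38 in TC replicate 3 and 0.50 in TM replicate 2 on the log2(TPM + 1) scale, at -0.44 in TC replicate 2 and -0.43 in TM replicate 3, and at 0.084 and -0.066 in TC replicate 1 and TM replicate 1. The corresponding medians of all tested genes lay between -0.10 and 0.10. Above the zone mean were 32 of 39 members in TC replicate 3 and 37 in TM replicate 2, against 1 in TC replicate 2 and 1 in TM replicate 3. IFITM2, IFIT5, DTX3L, SAMD9 and STAT2 departed from the pattern, each with another sample highest in both zones. Members with the ISRE letters had a median pooled SD of 0.50 (23 genes) and tested members whose windows lack them 0.40 (8 genes), and TC replicate 3 and TM replicate 2 were both highest in 16 of the 23 and 3 of the 8 (11.8% of all genes). The difference between these sets was not tested. Members without a listed promoter are in neither set, and all of them except IFITM2 had TC replicate 3 and TM replicate 2 highest.

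**Figure D4:**
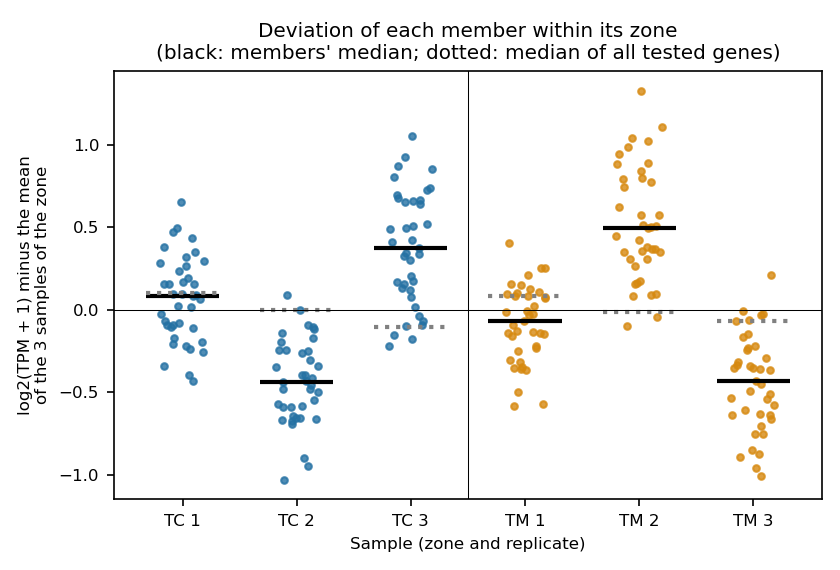
Deviation of each of the 39 tested members from the mean of its zone, on the log2(TPM + 1) scale (points, 1 per member), by sample; black lines are the members' median and dotted lines the median of all tested genes. The members' median is 0.38 in TC replicate 3 and 0.50 in TM replicate 2 and about -0.44 and -0.43 in TC replicate 2 and TM replicate 3.

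Host cell markers moved with part of this order. In each zone the sum of the fibroblast markers was highest in the sample with the highest members (225 TPM in TC replicate 3 and 1005 TPM in TM replicate 2), and in TM it was lowest in TM replicate 3 (91.0 TPM). In TC, however, it was lowest in TC replicate 1 (65.8 TPM), not in TC replicate 2. Most of the sum came from COL1A1, COL1A2 and COL3A1 (698, 218 and 79.8 TPM in TM replicate 2). FAP was also highest of its zone in TC replicate 3 and TM replicate 2, and so was THY1, at no more than 0.07 TPM. PDGFRB was highest of TM in TM replicate 2 (4.95 TPM). In TC it hardly varied, with 2.51 TPM in TC replicate 1 and 2.58 TPM in TC replicate 3. PDGFRA was highest of TC in TC replicate 3. In TM, however, it was higher in TM replicate 1 (0.2 TPM) than in TM replicate 2 (0.17 TPM). DCN and LUM were at 0 in both TC replicate 3 and TM replicate 2, and DCN was above 0 in TM replicate 1 alone (4.82 TPM). AIF1, a macrophage marker, was at 3.45 TPM in TC replicate 3 and 5.14 TPM in TM replicate 2 and between 0.57 and 1.47 TPM elsewhere. CSF1R and LYZ were at 9.12 and 3.99 TPM in TM replicate 2 against at most 4.07 and 0.83 TPM elsewhere. Not all macrophage markers shared this order. CD68, the most abundant, varied little over the samples (84.8 to 94.2 TPM). It was highest of TC in TC replicate 3 (93.5 TPM) but lowest of TM in TM replicate 2 (84.8 TPM). MRC1 was lowest of TC in TC replicate 3 (0.02 TPM), and it was higher in TM replicate 1 (0.29 TPM) than in TM replicate 2 (0.16 TPM). TYROBP and the C1Q genes were at 0. Skeletal muscle markers, at 591.5 TPM in TM replicate 2, were at 9.18 TPM in TC replicate 3. The part of these cells in the members' levels was not tested.

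The rest of the pathway was followed through 87 further genes, listed by role. Of 10 interferon genes 8 were listed at 0 in all 6 samples, IFNB1, IFNA1, IFNA2 and IFNG among them. IFNL1 was at 0.31 TPM in TC replicate 3, 0.13 in TM replicate 1 and 0.39 in TM replicate 2 and at 0 in the others, and IFNL3 was at 0.15 TPM in TM replicate 2 alone. Without the depth, it cannot be said how few reads these values stand for. The receptors were all expressed. IFNAR1 averaged 10.8 ± 2.76 TPM in TC and 10.6 ± 1.47 in TM, and IFNAR2 averaged 11.97 ± 1.35 and 10.2 ± 1.97 TPM (n = 3, SD). IFNGR1 averaged 27.5 ± 3.42 and 24.5 ± 3.83 TPM, and IFNGR2 61.8 ± 6.67 and 49.99 ± 4.48 TPM (n = 3, SD). For the lambda receptor, IFNLR1 averaged 4.22 ± 0.815 and 5.39 ± 0.752 TPM and IL10RB 16.2 ± 1.87 and 17.4 ± 2.03 TPM (n = 3, SD). IFNGR2 did not overlap between the zones (log2 difference 0.30 ± 0.14, SE, limma adjusted p = 0.356), and no receptor reached the unadjusted threshold.

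Among the signaling genes, TYK2 had the smallest unadjusted p-value of the pathway list. It was at 56.5, 71.8 and 52.1 TPM in TC and at 102.9, 97.95 and 110.2 TPM in TM. The zones did not overlap (log2 difference -0.79 ± 0.15, SE, limma unadjusted p = 0.000720, adjusted p = 0.0843), and the difference was -0.61 after median-of-ratios rescaling. JAK1, the other kinase of the type I receptor, averaged 37.4 TPM in TC and 40.7 TPM in TM, a log2 difference of -0.12 (SE 0.15). IRF3, the factor activated by nucleic acid sensors, was at 91.9, 109.5 and 91.6 TPM in TC and 130.1, 132 and 137 TPM in TM (log2 difference -0.45 ± 0.12, SE, limma adjusted p = 0.137). It was no longer under the unadjusted threshold after median-of-ratios rescaling (log2 difference -0.27, limma unadjusted p = 0.104).

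**Figure D5:**
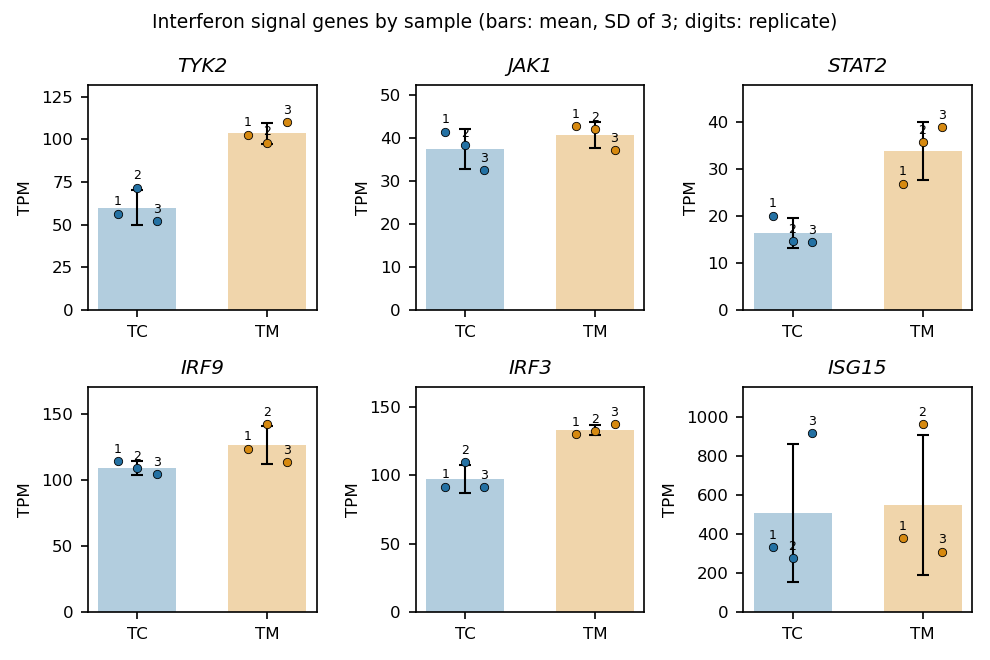
TPM of TYK2, JAK1, STAT2, IRF9, IRF3 and ISG15 in TC and TM; bars are means, error bars the SD of 3 samples, and points single samples with their replicate number. TYK2, STAT2 and IRF3 do not overlap between the zones, whereas ISG15 is highest in TC replicate 3 and TM replicate 2.

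Of the 87 genes 69 were tested. At an unadjusted limma p under 0.05, 9 were lower (13.0%; 14.2% of all genes) and 1 was higher in TC (1.45%; 1.93% of all genes), and 0 were called (smallest adjusted p = 0.0843). The zones did not overlap in 12 genes with lower and 1 with higher values in TC (18.9% and 3.28% of all genes). The shares at the unadjusted threshold were near the background. The split also depended on scaling, with 4 lower and 3 higher after median-of-ratios rescaling and 6 lower and 4 higher after quantile normalization. It depended on the samples too, with 17 lower without TM replicate 3 and 5 lower without TM replicate 2. Over all tested genes, 88.0% of those under the threshold were lower in TC in the main fit. This share was 57.0% after median-of-ratios rescaling and 60.4% after quantile normalization. Without TM replicate 3, 19.2% of all genes were under the threshold, and without TM replicate 2, 13.7%, against 16.2% with all samples. Besides TYK2 and IRF3, the lower genes were PARP10 (27.3 ± 4.26 TPM in TC against 49.2 ± 7.08 in TM, SD over 3 samples, log2 difference -0.83), TRIM25, which ubiquitinates the sensor RIG-I (23.9 ± 2.23 and 40.8 ± 5.91 TPM, log2 difference -0.74), and UBA7, the activating enzyme for ISG15 (15.5 ± 1.72 and 33.8 ± 11.5 TPM, log2 difference -1.02). CMTR1, which methylates RNA caps (log2 difference -0.50), ADAR, the RNA editing enzyme (-0.51), TRIM14 (-0.43) and WARS1, a tRNA synthetase (-0.31), completed them. Like TYK2, the genes PARP10, TRIM25 and UBA7 stayed under an unadjusted p of 0.05 in all 16 alternatives, which refit the same samples. IRF3 did so in 15, ADAR in 13, CMTR1 in 12, TRIM14 in 8 and WARS1 in 6 of the 16. None of these 5 did after median-of-ratios rescaling (largest limma unadjusted p = 0.429, for WARS1), and CMTR1, TRIM14 and WARS1 did not after quantile normalization either. GBP2, a guanylate-binding protein related to GBP1, was the gene higher in TC (47.8 ± 6.74 against 34.2 ± 9.37 TPM, SD over 3 samples, log2 difference 0.50 ± 0.21, SE, limma adjusted p = 0.299). It was under the unadjusted threshold in 8 of the 16 alternatives (largest limma unadjusted p = 0.144). Of 15 sensors and adaptors, such as RIGI, CGAS and STING1, 13 were tested and 0 were under that threshold. Over the 69 tested genes TM replicate 2 was the highest TM sample in 43 and TC replicate 3 the highest TC sample in 26, against 34 and 26 of the 39 members.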

How the data were processed

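The members and lists were chosen with earlier results of these data known. RNA of 6 samples (3 TC, 3 TM, grouped by their titles) was sequenced as paired reads. According to the methods the authors trimmed reads with SeqPrep and Sickle, aligned them with HISAT2, assembled them with StringTie and quantified genes with RSEM. The submitters' processing notes name the build hg38; the annotation release is not given in the sources used here, and no step that parts mouse from human reads is described, so mouse reads can enter human values. The authors deposited TPM per gene, without counts, so the study's count model could not be run. Symbols were taken from a table of gene IDs and positions from GENCODE v29.

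Testing covered the 13861 genes that reached 1 TPM in 3 or more samples, on log2(TPM + 1) with limma 3.58.1 in R 4.3.3 (moderated with a mean-variance trend, two-sided, no covariate, Benjamini-Hochberg adjustment over all tested genes). Differences are TC minus TM on that scale, which understates changes of low genes. With 3 samples against 3, an exact permutation test cannot go below 0.1. Nothing states that the samples are separate animals beyond the mice per group, so p-values measure the spread between these samples. The fit was tested on simulated data. Sample values are printed for members with an unadjusted p under 0.05, members whose zones do not overlap, and the 10 most abundant; pathway genes are named for an unadjusted p under 0.05 or as receptors, JAK1, TYK2 and IRF3, and a further gene of that rule is not reported here. Members outside this rule are given by means or ranges, or were named after their values were seen. Promoters were taken from RefSeq (35116 promoters, GRCh38.p14), and shared 100-base stretches from GENCODE transcripts. Protein sequences were not used here. Figures were drawn with matplotlib 3.10.9.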

Additional observations from a re-analysis of the deposited data

How the results depend on the processing

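The number of members called was 0 under all 16 alternatives (limma), and STAT2 was lower in TC at an unadjusted p under 0.05 in each. All alternatives refit the same samples or a part of them. The members with an unadjusted p under 0.05 numbered 1 lower and 0 higher, except 1 higher (ISG20) after quantile normalization and 1 after median-of-ratios rescaling. Over all genes 13.4% were under that threshold in either of these settings. Members without overlap numbered 1, but 2 after quantile normalization and 2 when TPM was recomputed without mitochondrially encoded genes. Leaving out each sample in turn gave 1 to 3 lower, 0 to 1 higher, 1 to 6 without overlap (6 without TM replicate 3), and a median difference from -0.32 to 0.093. Over all genes 11.4% to 19.2% were under the unadjusted threshold in these settings, the most without TM replicate 3. Fewer samples make overlap rarer by construction, and the share of all genes without overlap in these settings is not given here. Over all genes 19 were called, against 7 with a pseudocount of 0.1, 1 without a filter on low values, 4 after quantile normalization, 6 after median-of-ratios rescaling, 12 without a trend, 47 with robust moderation, and 1 to 17 with a sample left out (4 without TC replicate 1, 1 without TC replicate 3, 1 without TM replicate 1 and 9 without TM replicate 2); the cause was not tested. With the replicate number as a block 1 gene was called, and the block changed no count of members. The pathway list then had 7 lower and 0 higher genes at the unadjusted threshold instead of 9 and 1. Over all genes 13.9% were under that threshold with the block, against 16.2% in the main fit. The sources do not say whether same-numbered samples share a tumor, so the numbers were not taken as pairs. Deviations of same-numbered samples correlated positively across genes for number 1 (0.21) but not for 2 and 3 (-0.12 and -0.16). Deviations taken within zones of 3 samples depend on each other, so these correlations cannot settle the pairing. Across numbers, TC replicate 3 with TM replicate 2 (0.32) and TC replicate 2 with TM replicate 3 (0.15) were positive; whether these share a tumor is not given, and no other pairing was fitted. Of 176 values of 11 named members under the alternatives 174 moved by less than the spread between replicates; IFITM2 (0.067) and IRF9 (-0.025) moved by more after median-of-ratios rescaling. Depth is unknown, so no limit for values of 0 could be given.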
